A study of Homo sapiens with 12 samples.

Results

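Keratin-associated proteins (KRTAPs) are small structural proteins of the hair shaft, encoded by families of short genes that stand next to each other in clusters. The genes described here are the protein-coding genes of the RefSeq annotation of GRCh38.p14 (the assembly also called hg38) whose symbol is KRTAP followed by a family number and a member number. There are 94 of them among 19974 protein-coding genes of chromosomes 1 to 22 and X. The rule uses symbols only and no LAD value, although the family was taken up with earlier results of these data known. The data place these genes relative to lamina-associated domains (LADs), which are regions of the genome in contact with the protein meshwork under the nuclear envelope.

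The LADs are those of H9, an established line of human embryonic stem cells, and were found by pA-DamID. An antibody against lamin B1 (LMNB1) brings a fusion of protein A and the Dam methylase to the lamina, the enzyme methylates the adenine of nearby GATC sites, and the methylated fragments are sequenced. Cells of the naive state were kept in RSeT and cells of the primed state in mTeSR, with no treatment in either. For each state there were 3 libraries with the LMNB1 antibody (LMNB1-dam) and 3 Dam-only libraries, 12 in all, and the labels do not say whether the 3 came from separate cultures. The files used here give 1 LAD list per state, as intervals made of 10 kb windows, with no signal, read number or replicate behind them. The naive list held 9178 LADs (1438 Mb) and the primed list 5671 (1319 Mb). A difference between the states is therefore a difference between 2 lists, which could not be set against replicate error, and no test was made. Genes with 50% or more of their body inside LADs were counted as lying in LADs.

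In the hair follicle, KRTAPs are made late in the differentiation of the hair cortex and cuticle, where they fill the space between the keratin filaments and are cross-linked to them through cysteines. They are grouped by composition into high-sulfur, ultra-high-sulfur and high-glycine-tyrosine proteins. The counts by composition below assign whole families to these groups from textbook knowledge, not from protein sequences. Embryonic stem cells are not a tissue in which they are known to work. LADs as a rule are poor in genes, and most genes in them are silent. Expression was not measured in these data.

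The 94 genes formed 5 clusters when members less than 1 Mb apart were joined. On the short arm of chromosome 11, 6 genes from KRTAP5-1 to KRTAP5-6 spanned 113 kb (1584342 to 1697755). On its long arm, 5 genes from KRTAP5-7 to KRTAP5-11 spanned 55.6 kb (71527267 to 71582875). The chromosome 17 cluster held 34 genes from KRTAP3-3 to KRTAP17-1 in 322 kb (40993430 to 41315710), among them 12 KRTAP4 and 8 KRTAP9 genes. Chromosome 21 carried a pair of clusters. The proximal one held 33 genes from KRTAP24-1 to KRTAP19-8 in 757 kb (30281309 to 31038476), and the distal one 16 genes from KRTAP10-1 to KRTAP10-12 in 159 kb (44538981 to 44698044). The genes were 208 to 1643 bases long, with a median of 828.5 bases, so 83 of them lay in 1 window and 11 in 2. The call of a member thus rests on 1 or 2 windows. The 94 genes occupied 82 windows, and members that share a window share their call.

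Only the proximal chromosome 21 cluster lay in LADs, and it lay in LADs of both states. Primed LADs held all 33 of its genes and naive LADs 30. None of the 61 genes of the other 4 clusters was in a LAD of either state. Over the whole family this gave 30 of 94 genes (31.9%) in naive LADs, where the background was 18.9% of all protein-coding genes, and 33 of 94 (35.1%) in primed LADs, where the background was 17.3%. These shares come from 1 cluster, whose neighbouring genes share the same LADs and are not independent placements. The median covered share was 0% over the members and 0% over all protein-coding genes, in both states. No member had a covered share between 0% and 100%. Each of the 30 genes common to both lists was covered at 100% in both, and each of the 61 genes outside at 0% in both.

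**Figure D1:**
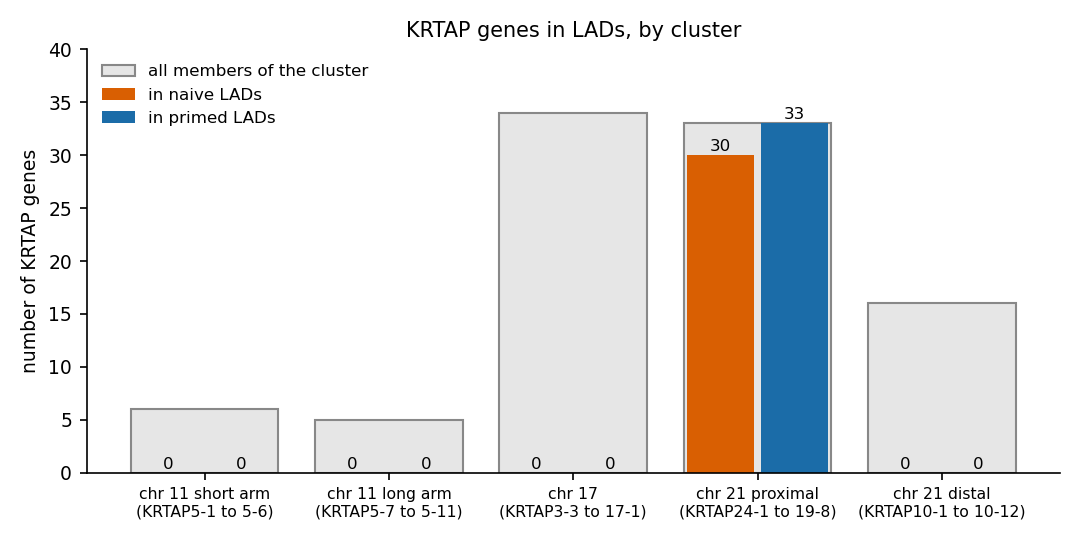
Bars give the number of KRTAP genes with at least 50% of their body in naive (orange) or primed (blue) LADs, in front of a grey bar for all members of the cluster. The proximal chromosome 21 cluster has 30 naive and 33 primed genes of 33, and the other 4 clusters have 0 in each state.

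The other genes of the same chromosomes give the scale for these counts. On chromosome 21, naive LADs held 10 of 190 other protein-coding genes (5.26%) and primed LADs 11 (5.79%). The proximal cluster therefore supplied 30 of the 40 protein-coding genes of chromosome 21 in naive LADs and 33 of the 44 in primed LADs. On chromosome 17, naive LADs held 21 of 1135 other genes (1.85%) and primed LADs 20 (1.76%), so 0 of 34 members is close to what the chromosome shows at large. On chromosome 11 the other genes were in LADs more often, 316 of 1290 (24.5%) in naive and 291 (22.6%) in primed, against 0 of the 11 KRTAP5 genes. The KRTAP5 genes stand in a short-arm and a long-arm cluster, so these 11 are not independent placements. Other short genes were also more often in LADs than genes at large. Naive LADs held 24.2% and primed LADs 24.9% of the 912 other protein-coding genes no longer than the longest member. Neighbours among these 912 may share LADs, and the part of length was not tested.

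The proximal chromosome 21 cluster lay in 1 unbroken primed LAD of 1090 kb (29980001 to 31070000). The span from KRTAP24-1 to KRTAP19-8 was covered at 100%, in 76 of 76 windows. In naive the same span was covered at 96.2%, in 73 of 76 windows, by 3 pieces. The first piece (30290001 to 30540000, 250 kb) held 13 genes from KRTAP26-1 to KRTAP19-5. The next (30550001 to 30850000, 300 kb) held 15 genes from KRTAP19-7 to KRTAP7-1. The last (30860001 to 31070000, 210 kb) held KRTAP11-1 and KRTAP19-8. A further naive LAD of 300 kb ended 1.31 kb before KRTAP24-1, so that over the whole primed LAD there were 4 naive pieces with 3 gaps, each 1 window wide, and 97.2% of its length was in naive LADs. The last border was at the same window in both lists, 31.5 kb beyond KRTAP19-8, apart from a naive LAD of 10 kb one window further on.

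**Figure D2:**
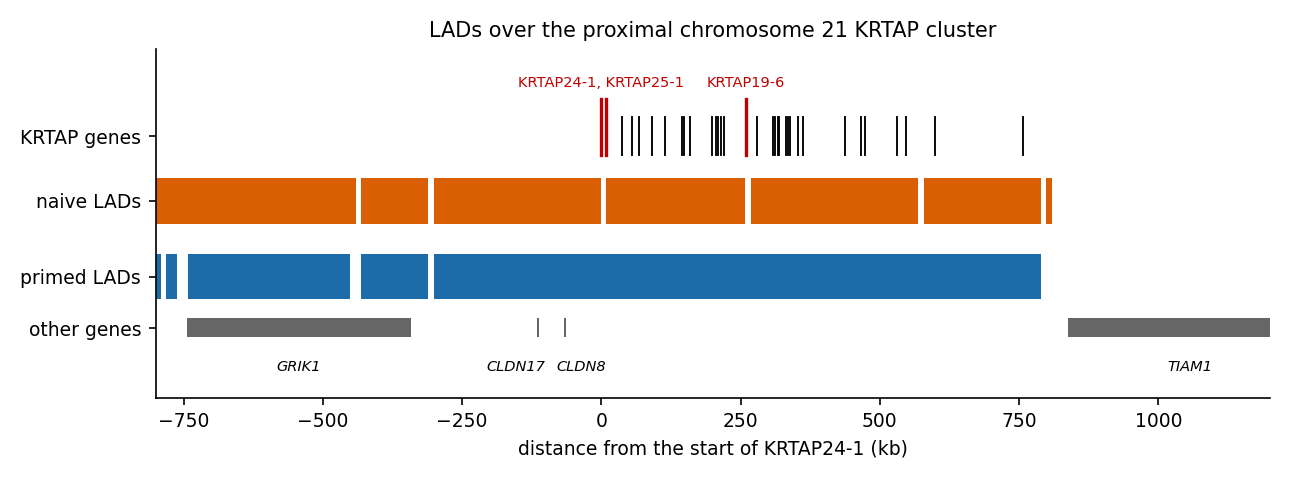
The horizontal axis is the distance in kb from the start of KRTAP24-1; orange and blue bars are naive and primed LADs, vertical strokes are KRTAP genes (red: in primed LADs only) and grey bars are neighbouring genes. The primed LAD of 1090 kb covers every KRTAP stroke, while 3 gaps of 10 kb cut the naive track within it, and the red strokes stand above 2 of them.

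The 3 genes that differed between the lists were all in primed LADs only and lay in 2 of these gaps. KRTAP24-1 (30281309 to 30282950) and KRTAP25-1 (30289145 to 30289514), both high-sulfur genes at the outer end of the cluster, share the gap from 30280001 to 30290000. Both had 0% of their body in naive LADs and 100% in primed LADs. KRTAP19-6 (30541535 to 30541864), a high-glycine-tyrosine gene, was covered at 0% and 100% and lies alone in the gap from 30540001 to 30550000. The third gap (30850001 to 30860000) held no member. No member was in naive LADs only. Among all protein-coding genes 1.89% were in primed LADs only and 3.44% in naive LADs only, against 3 and 0 of the 94 members. Of the 29 windows of the cluster that hold a member 2 were outside naive LADs, and of the 47 without a member 1 was. With gaps under 50 kb closed in both lists, all 33 genes were in LADs of both states and no member differed.

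Gaps of this kind were common in the naive list, and few of those inside primed LADs held a whole protein-coding gene. There were 4769 single-window gaps between naive LADs, of which 2520 lay inside primed LADs. Of these, 17 held a whole protein-coding gene. The 18 genes in them included the 3 KRTAP genes named above. Only a gene no longer than 10 kb can lie wholly in such a gap. The median length was 24170.5 bases over all protein-coding genes and 828.5 bases over members. How often other 10 kb windows of primed LADs hold a whole gene was not counted. On chromosome 21 as a whole, 5 protein-coding genes were in primed LADs only. Beside the 3 members these were ADAMTS5, a protease of the extracellular matrix (40.7% covered in naive and 100% in primed), and its overlapping neighbour LOC124905050 (37.4% and 100%). BACH1, a transcription factor gene of the haem and oxidative stress response, was the 1 gene in naive LADs only, at 50.6% against 47.6%.

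Each family of the proximal cluster had all its genes in primed LADs, and 3 families lacked 1 gene each in naive LADs. KRTAP19, the largest, had 8 of 8 genes in primed and 7 of 8 in naive LADs, KRTAP19-6 being the exception. KRTAP24-1 and KRTAP25-1, each the lone member of its family, were the other exceptions. All 4 KRTAP13, 4 KRTAP20, 3 KRTAP21, 3 KRTAP6 and 2 KRTAP22 genes were in LADs of both states. KRTAP7-1, KRTAP8-1, KRTAP11-1, KRTAP15-1, KRTAP23-1, KRTAP26-1 and KRTAP27-1, also lone members of their families, were too. By composition, primed LADs held 22 of 22 high-glycine-tyrosine genes and naive LADs 21, and all of them belong to this cluster. Of the 39 high-sulfur genes, primed LADs held 11 and naive LADs 9. None of the 32 ultra-high-sulfur genes (KRTAP4, KRTAP5, KRTAP9 and KRTAP17) was in a LAD of either state. KRTAP29-1, not assigned here to a group, was outside in both. The high-sulfur genes are the group with members both inside and outside the proximal chromosome 21 cluster. The 11 in that cluster were all in primed LADs. The 28 on chromosome 17 and in the distal chromosome 21 cluster were outside in both states.

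Members in LADs of both states lay deeper inside primed than inside naive LADs, as follows from the missing gaps. The exception was KRTAP19-8, at 31.5 kb from the border in both. The 3 genes in primed LADs only have no naive distance and enter the primed values alone. The distance from a member to the nearest border of its LAD ran from 31.5 to 528 kb in primed, with a median of 445 kb over 33 genes. In naive it ran from 10.9 to 131 kb, with a median of 55.5 kb over 30 genes. KRTAP19-7, next to the gap that holds KRTAP19-6, was the nearest to a naive border (10.9 kb), and KRTAP21-3 the farthest (131 kb). The 8 KRTAP pseudogenes that lie in the cluster, such as KRTAP13-5P and KRTAP19-11P, were covered at 100% in both states. The other 10 of the 18 annotated KRTAP pseudogenes lie in or near the other clusters and were covered at 0% in both.

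The proximal cluster sat at the end of a LAD block. Of the 10 nearest other protein-coding genes before it, naive LADs held 6 and primed LADs 5. CLDN8, a gene of a tight junction claudin 65.2 kb before KRTAP24-1, and CLDN17 lay wholly in LADs of both states. GRIK1, which encodes a kainate-type glutamate receptor subunit, had 97.5% of its length in naive and 94.3% in primed LADs. The nearest gene before the cluster outside LADs of both states was CCT8, a subunit gene of a cytosolic chaperonin, 1208 kb away. None of the 10 nearest genes after the cluster was in a LAD of either state. The first of these, TIAM1, encodes an activator of the RAC GTPase and starts 79.9 kb beyond KRTAP19-8, and SOD1, the superoxide dismutase gene, follows at 621 kb. In the 1 Mb before the cluster naive LADs took up 93.9% and primed LADs 86.0% of bases, and in the 1 Mb after it 4.15% and 3.15%.

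**Figure D3:**
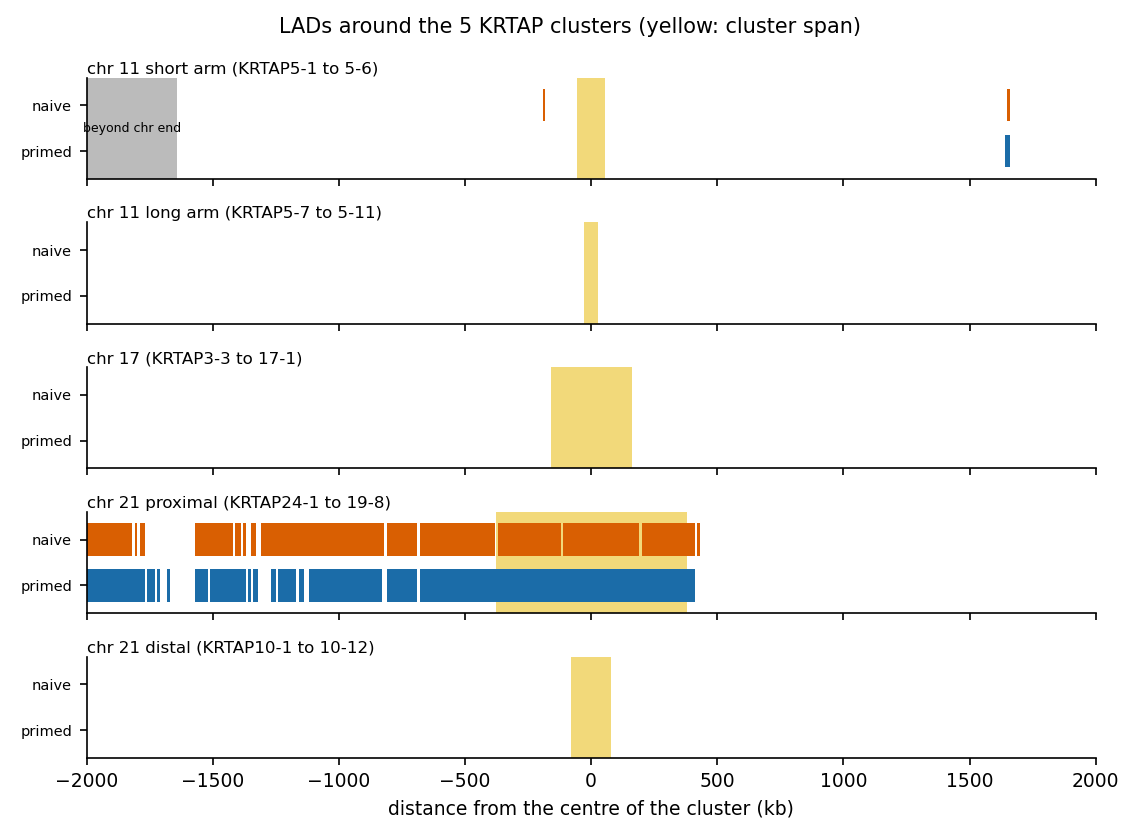
Each panel shows naive (orange) and primed (blue) LADs within 2 Mb of the centre of a KRTAP cluster, whose span is shaded yellow; the horizontal axis is the distance in kb and the grey block in the first panel lies beyond the start of the chromosome. LADs fill the left of the proximal chromosome 21 panel up to the end of the cluster, and the other panels are empty but for a few windows around the short-arm chromosome 11 cluster.

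The other 4 clusters lay far from LADs, with 1 exception. The KRTAP5 genes of the long arm of chromosome 11 were 3487 to 3542 kb from the nearest LAD in both states. The chromosome 17 genes were 4813 to 5135 kb away in naive and 2584 to 2906 kb in primed. For the distal chromosome 21 genes the distances were 3819 to 3977 kb and 3579 to 3737 kb. The short-arm chromosome 11 genes were 124 to 237 kb from a naive LAD, which was 10 kb long, and 1582 to 1695 kb from a primed LAD. The nearest LAD of at least 100 kb was 2602 kb from this cluster in naive and 2492 kb in primed. All 80 of the genes counted as 10 neighbours on each side of these 4 clusters were outside LADs of both states. These neighbours include KRT40, KRT39, KRT33A and KRT33B beside the chromosome 17 cluster. The distal chromosome 21 genes lie within TSPEAR, a gene linked to hair and tooth development.

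The proximal cluster was also the one with the fewest other genes around it. Within 1 Mb on both sides of the span, 8 other protein-coding genes had their midpoint there. The corresponding numbers were 20 for the long-arm chromosome 11 cluster, 26 for the distal chromosome 21 cluster, 52 for the short-arm chromosome 11 cluster and 69 for the chromosome 17 cluster. Within its span the proximal cluster was the most spread out, with 4.36 members per 100 kb, against 10.1 in the distal chromosome 21 and 10.5 in the chromosome 17 cluster and 5.29 and 8.99 in those of chromosome 11. With 1 cluster in LADs and 4 outside, these values are a description and no relation was tested.

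Few long primed LADs held as many genes as the one with the cluster. That LAD was singled out because it holds the members, so its gene number follows largely from the choice. Of the 362 primed LADs of 1 Mb or longer, the one that holds the cluster had 35 protein-coding genes wholly inside, 33 KRTAP genes with CLDN8 and CLDN17, or 32.1 per Mb. The median over the other 361 was 1.48 per Mb, and 1 of them had more, a LAD of 2.04 Mb on chromosome 11 (4190001 to 6230000) with 76 genes, 55 of them olfactory receptor genes. Together with GRIK1, CLDN17 and CLDN8, the 33 members formed a run of 36 neighbouring protein-coding genes in primed LADs, tied for the tenth longest of 523 such runs. In naive the missing windows split this into runs of 13 (KRTAP26-1 to KRTAP19-5) and 17 members (KRTAP19-7 to KRTAP19-8). The naive gaps in this LAD came to 2.75 per Mb, against a median of 1.47 per Mb in the other 361. Of those, 296 had fewer and 65 more gaps per Mb. Among the 93 others of 1 to 1.5 Mb, 72 had fewer and 21 more. The rate in this LAD comes from 3 gaps of 1 window each, so its position rests on few windows.

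**Figure D4:**
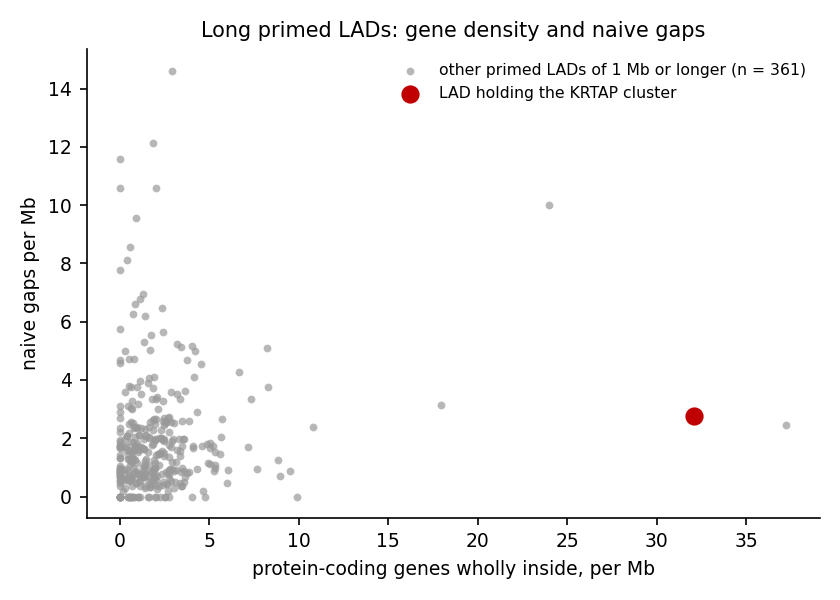
Each point is 1 primed LAD of 1 Mb or longer; the horizontal axis is the number of protein-coding genes wholly inside per Mb and the vertical axis the number of naive gaps inside it per Mb. The LAD that holds the KRTAP cluster (red) lies far to the right at 32.1 genes per Mb, against a median of 1.48 in the other 361. It has 2.75 gaps per Mb, from 3 gaps, against a median of 1.47.

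Other genes of hair and skin were almost all outside LADs. The lists held 11 type I hair keratins on chromosome 17, which flank the KRTAP cluster there, 6 type II hair keratins, 8 keratins of the inner root sheath, 29 epithelial keratins and 40 genes of the cornified envelope, including the clustered SPRR and LCE genes. None of these was in a LAD of either state, and all medians of covered share were 0%. Of 11 regulators and enzymes of the hair shaft, 2 were in LADs of both states. These were LEF1, a transcription factor gene of WNT signalling (84.4% in both), and DSG4, a desmoglein gene of hair adhesion (100% in both). GATA3 was covered in part in naive (17.4%) and not in primed. The total was 2 of 105 listed genes (1.90%) in each state, below the background shares of all protein-coding genes. Most listed genes stand in a few clusters, the keratins on chromosomes 12 and 17 and the cornified envelope genes on chromosome 1. Neighbours there share their surroundings and are not independent placements. Keratins beside the chromosome 17 KRTAP cluster were also counted among its neighbours above.

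The upstream sequences are shown because the clusters outside and inside LADs can be compared by what lies at the genes' starts. RefSeq promoter sequences (GRCh38.p14) were matched for 80 of the 94 genes. The 14 unmatched genes are KRTAP5-1, KRTAP5-2, KRTAP5-4, KRTAP5-5, KRTAP5-6, KRTAP5-7, KRTAP5-8, KRTAP5-10, KRTAP5-11, KRTAP9-8, KRTAP19-2, KRTAP19-4, KRTAP21-1 and KRTAP10-4. The 250 bases before the start are printed 5′ to 3′ for the 3 genes in primed LADs only, then for the matched gene in the middle of each cluster. Capitals mark GATC, the site that Dam methylates, and TATAAA or its reverse complement TTTATA.
KRTAP24-1 (chr21:30282951-30283200, minus strand): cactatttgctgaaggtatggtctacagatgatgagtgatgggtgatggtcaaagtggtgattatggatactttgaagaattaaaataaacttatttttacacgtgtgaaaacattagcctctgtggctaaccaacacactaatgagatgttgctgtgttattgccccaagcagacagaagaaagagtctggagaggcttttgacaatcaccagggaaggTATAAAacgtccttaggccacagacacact
KRTAP25-1 (chr21:30289515-30289764, minus strand): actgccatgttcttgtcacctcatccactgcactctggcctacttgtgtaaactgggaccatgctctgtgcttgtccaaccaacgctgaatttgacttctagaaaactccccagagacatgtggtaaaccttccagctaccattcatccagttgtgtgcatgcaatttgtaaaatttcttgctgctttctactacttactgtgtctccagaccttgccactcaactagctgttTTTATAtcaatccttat
KRTAP19-6 (chr21:30541865-30542114, minus strand): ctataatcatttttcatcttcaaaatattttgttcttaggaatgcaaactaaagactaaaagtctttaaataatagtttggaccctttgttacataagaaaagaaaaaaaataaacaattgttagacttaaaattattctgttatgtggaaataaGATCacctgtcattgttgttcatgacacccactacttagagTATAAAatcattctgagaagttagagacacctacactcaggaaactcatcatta
KRTAP19-7 (chr21:30561315-30561564, minus strand): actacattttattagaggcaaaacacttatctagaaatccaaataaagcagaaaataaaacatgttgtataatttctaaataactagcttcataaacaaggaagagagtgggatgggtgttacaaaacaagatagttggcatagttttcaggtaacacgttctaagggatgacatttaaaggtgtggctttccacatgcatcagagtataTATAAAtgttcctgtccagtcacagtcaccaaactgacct
KRTAP10-9 (chr21:44626843-44627092, plus strand): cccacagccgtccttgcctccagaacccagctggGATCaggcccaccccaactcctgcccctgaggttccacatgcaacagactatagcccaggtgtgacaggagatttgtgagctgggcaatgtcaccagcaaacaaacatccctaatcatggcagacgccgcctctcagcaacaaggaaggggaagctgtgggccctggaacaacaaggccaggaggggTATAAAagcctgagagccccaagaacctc
KRTAP4-12 (chr17:41124183-41124432, minus strand): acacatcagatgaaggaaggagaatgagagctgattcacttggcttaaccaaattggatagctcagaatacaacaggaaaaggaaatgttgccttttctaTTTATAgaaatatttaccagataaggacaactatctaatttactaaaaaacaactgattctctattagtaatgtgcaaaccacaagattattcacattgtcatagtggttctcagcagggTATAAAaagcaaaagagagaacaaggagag
KRTAP5-3 (chr11:1608464-1608713, minus strand): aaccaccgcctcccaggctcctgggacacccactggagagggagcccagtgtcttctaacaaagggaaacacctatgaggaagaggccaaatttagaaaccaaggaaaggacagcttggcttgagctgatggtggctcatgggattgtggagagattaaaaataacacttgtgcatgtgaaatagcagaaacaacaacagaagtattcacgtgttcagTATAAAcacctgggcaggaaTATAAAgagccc
KRTAP5-9 (chr11:71548170-71548419, plus strand): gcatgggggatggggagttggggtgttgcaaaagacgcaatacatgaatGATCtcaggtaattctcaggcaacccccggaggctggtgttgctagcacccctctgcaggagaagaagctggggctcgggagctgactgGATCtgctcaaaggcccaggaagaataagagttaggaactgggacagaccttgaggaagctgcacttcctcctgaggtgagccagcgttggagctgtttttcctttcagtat

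The clusters differed in base composition before the gene starts. The median G+C content was 37.0% over 30 genes of the proximal chromosome 21 cluster (28.4% to 44.4%) and 40.4% over 33 genes of the chromosome 17 cluster (32.4% to 47.2%). It was 53.2% over 15 genes of the distal chromosome 21 cluster (44.4% to 62.4%), 47.2% for KRTAP5-3 and 54.0% for KRTAP5-9. The proximal and the distal chromosome 21 ranges met only at 44.4%. Those of the proximal chromosome 21 and the chromosome 17 cluster overlapped over most of their length. A relation between base composition and LADs was not tested. KRTAP19-6 (28.4%) had the lowest value of the 80 matched members, while KRTAP24-1 (40.8%) and KRTAP25-1 (43.6%) were above the median of their cluster. For comparison, the medians of the other protein-coding genes' promoters were 53.6% for genes in LADs of both states and 63.2% for genes in neither.

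**Figure D5:**
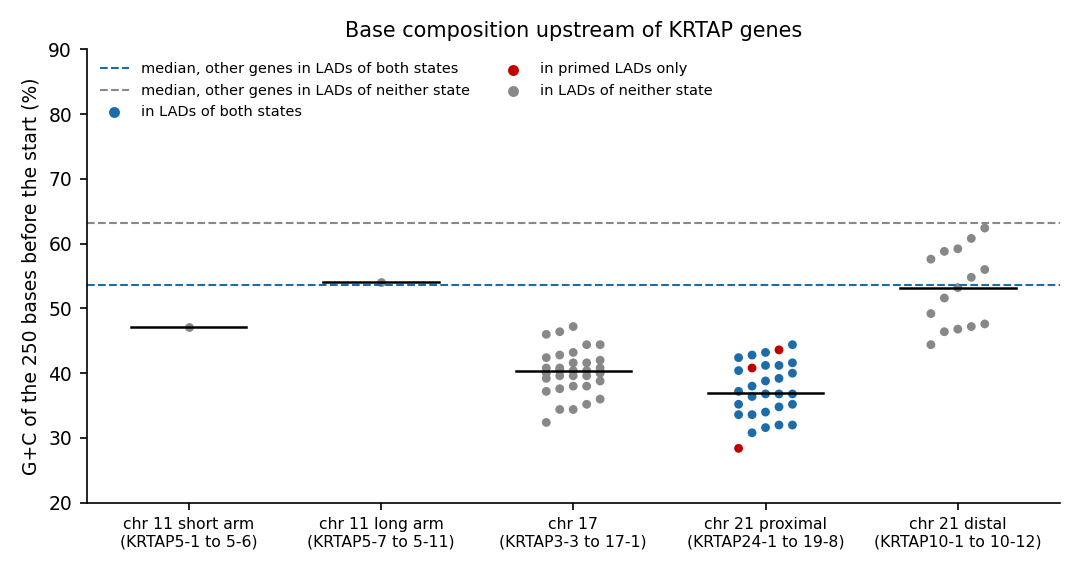
Points give the G+C percentage of the 250 bases before the start of each matched KRTAP gene, by cluster, with black lines at the medians; colours give the LAD call and dashed lines the medians of other protein-coding genes. The proximal chromosome 21 and chromosome 17 genes overlap between 32.4% and 44.4%, and the distal chromosome 21 genes lie between 44.4% and 62.4%.

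GATC was found in 28 of the 80 member sequences (35.0%), close to the 34.2% of 22033 protein-coding promoters of the same length. It was present in 10 of 30 sequences in the proximal chromosome 21 cluster, 13 of 33 on chromosome 17 and 4 of 15 in the distal chromosome 21 cluster. GATC reads the same on both strands and cannot overlap the other motif, while TATAAA and TTTATA can overlap each other. KRTAP19-6 had 1 GATC, and KRTAP24-1 and KRTAP25-1 had none in this window. How many GATC sites the 10 kb windows hold was not analysed here. TATAAA on either strand was found in 63 of 80 member sequences (78.8%), against 9.03% of all protein-coding promoters. It was present in 22 of 30, 29 of 33 and 11 of 15 sequences of the same 3 clusters. On the gene's own strand and starting 20 to 40 bases before the start, where a TATA box usually lies, it was found in 11 of 30, 15 of 33 and 7 of 15, and in 3.05% of all. Among the promoters of other protein-coding genes, TATAAA on either strand was found in 14.4% for genes in LADs of both states and in 7.25% for genes in neither. Median G+C was 40.6% over the member sequences and 62% over all protein-coding promoters. The part of base composition in the TATAAA shares was not tested.

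Near-identical copies can share sequence reads, and the sources used here do not say how the authors placed reads with several matches. Among the matched upstream sequences, 5 genes of the chromosome 17 cluster had a partner of at least 90% identity, the closest pair being KRTAP4-8 and KRTAP4-11 (92.5%). In the distal chromosome 21 cluster the highest identity was 78.3%, between KRTAP10-2 and KRTAP10-10. In the proximal cluster it was 68.7%, with a median of 53.8% to the closest partner. In each chromosome 11 cluster only 1 gene was matched, so identity within these clusters could not be computed. Gene bodies were not compared. A window that few reads can be assigned to looks the same in these lists as one that does not touch the lamina, in the clusters outside LADs as in the 3 naive gaps. The part of read placement in these calls was not tested.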

How the data were processed

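The deposited lists give LAD intervals (chromosome, start, end) with no value per interval. Their unit is recorded as other, since the columns are positions set by the authors. BWA, SAMtools 1.10, SICER and hg38 are named in the submitters' processing notes. The sources used here do not state thresholds, the handling of reads with several matches or how libraries of a state were combined. The labels call the lists final, while those used here are named simple. Interval ends were all multiples of 10 kb. Depth is unknown.

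Genes were placed with RefSeq's GRCh38.p14 table (chromosomes 1 to 22 and X), in 1-based coordinates. Covered shares, cluster spans (members less than 1 Mb apart), LAD pieces, distances, the 10 nearest genes on each side and 6 gene lists were computed in Python 3.11.15 with numpy 2.4.6, pandas 2.3.3 and SciPy 1.17.1, promoter identity by global alignment in Biopython 1.88, and figures with matplotlib 3.10.9. The coverage code was tested on simulated lists. Members and lists were chosen with earlier results of these data known. Named were members that differ between states, cluster ends, flanking genes and listed genes in LADs; other genes were named after their values were seen. Planned protein comparisons were not made, since no protein sequences were used here. Alternatives joined or filtered LADs, changed the gene share, extended genes or spans, and counted pseudogenes.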

Additional observations from a re-analysis of the deposited data

How the results depend on the processing

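Over 14 alternative settings, 295 values were recomputed. Of these, 282 stayed within 1.5 times the count or within the binomial interval of the share, and 13 moved. This tally does not measure robustness, since many values could not move. Joining members less than 200 kb apart formed the same clusters, so its 30 values were bound to stay. Many others were counts of 0 in the clusters far from LADs. The contrast between clusters kept its form under each setting that joined or filtered LADs or changed the gene share. In each, 0 of the 61 genes outside the proximal chromosome 21 cluster was in a LAD, and 33 of its genes were in primed LADs. These settings had no room to change that. No member was covered in part, so the gene share could not matter. The LADs holding members were 210 kb or longer, so leaving out short LADs could not matter. The genes outside lay 124 kb or more from any LAD, beyond the joining distances. The split in naive did not keep its form. With LADs less than 50 or 100 kb apart joined, and with LADs under 50 kb left out before joining at 50 kb, 0 members were in primed LADs only, and the cluster was covered at 100% in naive by 1 piece. With 10 kb added on each side of a gene, 0 members were in primed LADs only. With the span extended by 50 or 100 kb on each side, naive pieces numbered 5, and with 100 kb primed coverage was 92.8%. Leaving out LADs under 50 or 100 kb changed no member. The comparison with LADs of 1 to 1.5 Mb, chosen after seeing the data, gave a median of 1.56 naive gaps per Mb. No paired analysis was possible because each state has 1 list with no libraries kept apart, so no library could be left out either. Depth and GATC density per window are unknown and limit each call that rests on 1 window.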
